A study of Mus musculus with 8 samples.

Results

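The proteasome genes were taken as every symbol that begins with Psma, Psmb, Psmc, Psmd, Psme, Psmf or Psmg followed by a digit and is not at 0 in all libraries, which gave 49 of the 22432 genes in the table. They comprise 7 genes of the 20S alpha ring, 4 non-catalytic and 3 constitutive catalytic genes of the 20S beta ring, and the 3 immunoproteasome catalytic genes Psmb8, Psmb9 and Psmb10. Another 6 encode the ATPases and 11 the other subunits of the 19S particle, 3 encode chaperones of 19S assembly and 4 chaperones of 20S assembly, 4 encode activators and 1 an inhibitor. The last 3 are the testis alpha gene Psma8, the thymus gene Psmb11 and Psmc3ip, which meets the naming rule but encodes a meiotic recombination factor and no proteasome subunit. A test was run on 48 of them, since Psmb11 fell below the minimum level.

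RNA was sequenced from cultured mouse regulatory T (Treg) cells, a T cell type defined by Foxp3 that dampens immunity, with 2 libraries in each of 4 genotypes. All cells were on the C57Bl/6 background and carried Foxp3-Cre-YFP, so Cre acts in Foxp3-expressing cells. Nfkb2-KO cells were nfkb2 F/F, RelB-KO cells were RelB F/F, DKO cells carried both floxed genes, and WT cells had the Cre alone. YFP+ cells were sorted from spleen and lymph nodes combined, then held for 16 h with plate-bound anti-CD3 (5 µg/ml), anti-CD28 (1 µg/ml), agonist anti-OX40 (2 µg/ml) and IL-2 (10 ng/ml). RelB and the Nfkb2 product are subunits of the alternative NF-kB pathway, which OX40 can engage, and the comparisons ask what loss of either gene or both does to these transcripts. The labels do not say whether replicates came from separate animals. The 2 WT libraries differ in sex-linked transcripts, as given below, so they are not repeats of the same sample. The p-values measure only the spread between these libraries, which may be technical in the other genotypes.

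The proteasome degrades proteins tagged with ubiquitin. Its 20S core is a barrel of alpha rings around beta rings, and the beta rings hold the proteolytic sites of Psmb5, Psmb6 and Psmb7. In lymphocytes and in cells exposed to interferon-gamma, Psmb8, Psmb9 and Psmb10 can take the places of Psmb5, Psmb6 and Psmb7, and the resulting immunoproteasome favours peptides that suit MHC class I. The 19S particle recognises and unfolds substrates, while PA28 (Psme1 with Psme2) opens the core in another way.

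The deposited levels are log2 values. The design gives 30 M reads per sample, and no count of reads per library was used here. Each targeted gene was low in the genotypes that the labels give as deleted for it. Nfkb2 was at 8.75 and 8.79 in Nfkb2-KO and 9.29 and 9.85 in DKO, against 12.67 and 12.31 in RelB-KO and 12.80 and 12.62 in WT. Relb was at 6.35 and 6.52 in RelB-KO and 6.74 and 7.08 in DKO, against 10.84 and 10.83 in Nfkb2-KO and 10.66 and 10.49 in WT. One library, WT replicate 1, stood apart. Its Xist level was 8.17, where the others had 14.61 to 15.13, and its Ddx3y level was 11.60, where the others had 4.25 to 4.35. Both transcripts are sex-linked, and this library enters every comparison with WT. The part of sex in those comparisons was not tested. Foxp3 lay between 13.95 and 14.28 everywhere. The summed level of 6 Treg and T cell markers ran from 16.95 to 17.30, and that of the 5 B cell markers found, of 6 listed, from 7.34 to 7.87 with Pax5 at 0. The B cell sum was 7.77 and 7.70 in Nfkb2-KO, 7.79 and 7.41 in RelB-KO and 7.81 and 7.87 in DKO, against 7.34 and 7.55 in WT, so that both Nfkb2-KO and DKO lay above WT without overlap. Most of the sum is Cd79b, which differed from WT by 0.32 ± 0.16 in Nfkb2-KO and by 0.46 ± 0.16 in DKO, neither past the test. Blk, another B cell marker, was at 3.60 and 3.58 in Nfkb2-KO, against 3.38 and 3.39 in WT (0.21 ± 0.03; adjusted p = 0.0929 by limma and 0.0244 with replicate number as a block). By limma without the block it was higher in Nfkb2-KO than in RelB-KO (0.26 ± 0.03, adjusted p = 0.0293). In the same model it was lower in DKO than in Nfkb2-KO (-0.27 ± 0.03, adjusted p = 0.0298). Blk was weakly expressed in every library (3.30 to 3.60), and its counting error cannot be given, so these SEs may understate the spread. The part of B cell RNA in the results was not tested. The 7 myeloid and dendritic markers found, of 8 listed, (Adgre1 stands in the table under another symbol and was not summed) reached 7.48 to 8.03 and the 6 CD8 T and NK cell markers to 8.02 to 8.29, with overlap between Nfkb2-KO and WT for both.

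The libraries also differed by replicate number, and in the proteasome genes that difference went with near-identical copies elsewhere in the genome. A near copy was defined as another annotated locus matching the transcript at 95% identity or more over at least 300 bases, and 9 of the 48 tested genes had one. Psme2, the PA28 beta subunit (chr14:55587441-55591113, minus strand, GRCm38), has the copy Psme2b on chromosome 11, and Psma5, an alpha ring subunit (chr3:108256926-108279974, plus strand), has the processed pseudogene Gm8394 on chromosome 10. The stretches below show how close the copies are. They are coding bases 424 to 543 of Psme2 and 515 to 634 of Psma5 with the matching stretch of each copy, from GENCODE M21, and capitals mark the bases at which a gene and its copy differ.
Psme2: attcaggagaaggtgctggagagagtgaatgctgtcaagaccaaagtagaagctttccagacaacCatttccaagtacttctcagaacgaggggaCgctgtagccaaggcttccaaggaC
Psme2b: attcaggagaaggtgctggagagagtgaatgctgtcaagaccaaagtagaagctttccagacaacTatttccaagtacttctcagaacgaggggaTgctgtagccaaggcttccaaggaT
Psma5: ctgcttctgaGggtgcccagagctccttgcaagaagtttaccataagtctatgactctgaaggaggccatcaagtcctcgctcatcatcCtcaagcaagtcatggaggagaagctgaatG
Gm8394: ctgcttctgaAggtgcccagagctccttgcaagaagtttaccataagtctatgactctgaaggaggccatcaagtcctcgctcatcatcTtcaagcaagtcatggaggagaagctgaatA

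Each stretch holds 3 differences in 120 bases. Over their whole coding sequences Psme2 and Psme2b differ at 5 of 717 bases, and Psma5 and Gm8394 at 8 of 723. Of all 50-base windows of the Psme2 transcript, 59.3% occur without mismatch in its copy, and for Psma5 the share is 54.5%, so a read of that length from such a window cannot be assigned to gene or copy. Psme2 was at 12.81 in Nfkb2-KO replicate 2, 12.69 in RelB-KO replicate 2, 12.87 in DKO replicate 2 and 12.71 in WT replicate 2. The same gene was at 11.06, 10.99, 11.16 and 11.11 in replicate 1 of those genotypes. Psma5 was between 10.59 and 10.91 in the 4 libraries of replicate 2 and between 9.19 and 9.35 in those of replicate 1. For both genes the replicate numbers did not overlap, and the genotypes within a number lay close together.

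Averaged over the 4 genotypes, replicate 2 exceeded replicate 1 by 1.69 log2 units for Psme2, 1.49 for Psma5 and 1.11 for Psma3, another alpha ring subunit, the 3 widest gaps. Psma3 was between 11.11 and 11.41 in the libraries of replicate 2 and between 10.11 and 10.26 in those of replicate 1. Psmb3, a non-catalytic beta subunit, followed with a mean gap of 0.98. The 9 genes with a near copy had a median gap of 0.47 (range 0.11 to 1.69), against a median of 0.07 (range -0.15 to 0.31) for the 39 without. A gap above 0.3 was seen in 6 of the 9 and in 1 of the 39 (Psmc3ip), a share of 66.7% against 2.56%, beside 5.39% of all genes tested. Psmb5 and Psmd2 had near copies and narrow gaps: 49.4% of Psmb5 windows occur in Gm3375, and its mean gap was 0.11, while that of Psmd2, a 19S scaffold subunit, was 0.12. The lowest mean gaps were those of Psmd10, Psme4 and Psmb10, at -0.15, -0.08 and -0.07. Differences between genotypes were therefore also taken within each replicate number, and the part of read length or mapping in the gap was not tested.

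**Figure D1:**
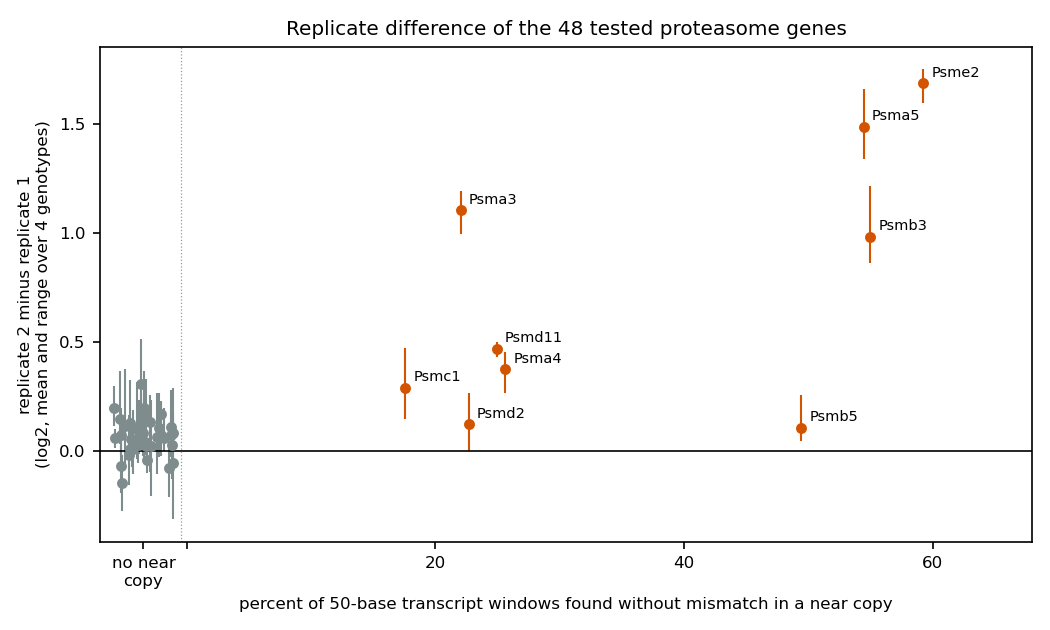
Replicate 2 minus replicate 1 (log2) for the 48 tested proteasome genes, against the percent of 50-base transcript windows found without mismatch in a near copy. Points are means over 4 genotypes and lines run from the lowest to the highest genotype; genes with no near copy are grey and spread sideways for legibility. Psme2 and Psma5 sit highest, at 1.69 and 1.49, while Psmb5 stays at 0.11.

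Most proteasome genes were strongly expressed. For 44 of the 49, the mean of the un-logged values lay at or above the equivalent of a log2 level of 9, called strongly expressed in what follows. In bulk RNA, fewer cells with a transcript and less of it per cell cannot be told apart. The 5 highest mean levels as deposited were those of Psmb8 (12.94), Psme1 (12.89), Psme3, a nuclear activator of the 20S core (12.84), Psmd2 (12.70) and Psmd1, a scaffold subunit of 19S (12.13). At the other end stood Psmb11, the thymic catalytic subunit, at -1.03, and Psma8 at 2.88, both with nearly the same value in all 8 libraries. At such low levels the counting error cannot be given, so the narrow ranges do not show stable expression. Psmc3ip (7.44) and the 20S assembly chaperones Psmg4 (8.43) and Psmg3 (8.75) completed the 5 lowest. The table's header names RPKM, but the values did not sum as RPKM would, so a comparison between genes was also made per kilobase of exonic length. Whether the deposited values already hold a length correction on another scale is not known. If they do, the per-length values correct for length again, and the deposited order applies. On that per-length scale the mean log2 level was 12.58 for Psme1, 12.20 for Psmb8 and 11.95 for Psme2, the 3 highest over all libraries. Psme1 and Psmb8 were also among the 3 highest within each replicate number, whereas Psme2 was first of 49 in replicate 2 (12.79) and at rank 11 in replicate 1 (11.10). The alpha ring genes ran from 9.22 (Psma3) to 11.69 (Psma7) and the ATPases from 10.21 (Psmc6) to 11.31 (Psmc5) on the same scale. There Psma3 was at 8.66 in replicate 1 and 9.77 in replicate 2. The length joins the exons of all protein-coding transcripts, 2846 bases for Psma3 against 1180 for Psma7. The ranges therefore depend on the annotated length as well as on the level. Assembly chaperones lay below the ATPases, between 7.73 (Psmd9) and 9.33 (Psmg1), a range that also holds Psma3 of the alpha ring.

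**Figure D2:**
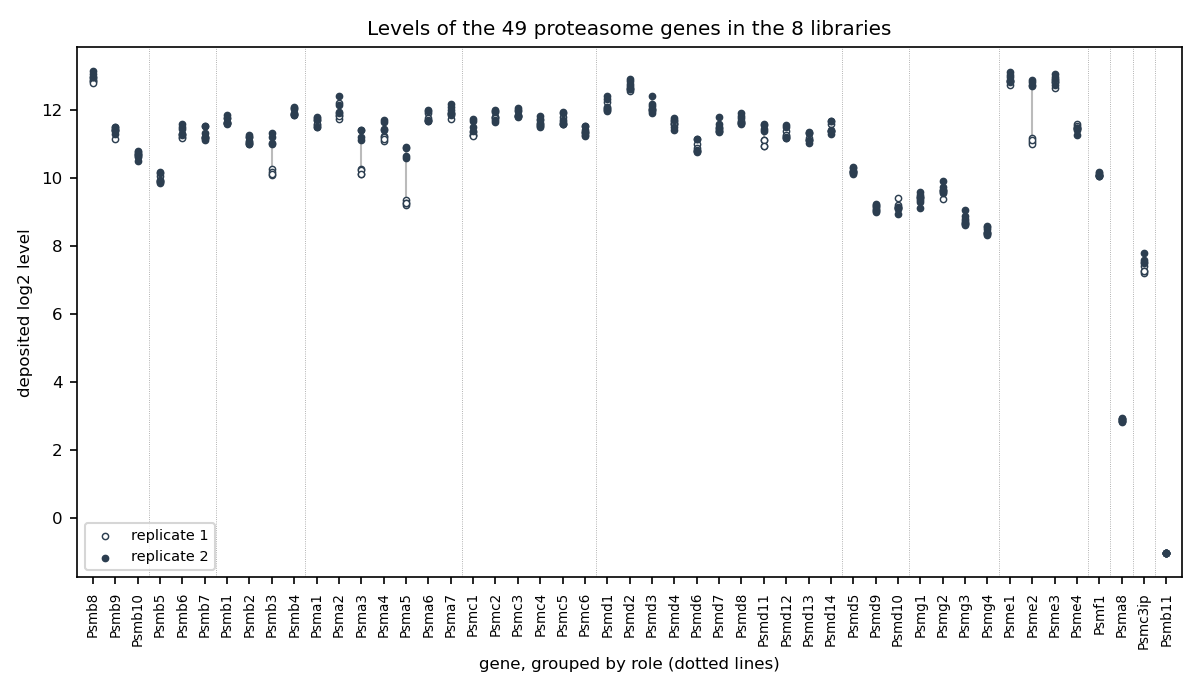
Deposited log2 level of each of the 49 proteasome genes, with 1 point per library (open, replicate 1; filled, replicate 2) and a line over the range. Psmb8 averages 12.94 and Psmb11 -1.03; the wide ranges are those of Psme2, Psma5, Psma3 and Psmb3.

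Levels across the core and the 19S particle were slightly higher on average in Nfkb2-KO than in WT, and few single genes passed a test. The median log2 difference between Nfkb2-KO and WT was 0.19 over the 48 proteasome genes, a 1.14-fold difference, against 0.00 over all 13797 genes tested and 0.03 over the 6500 strongly expressed genes. Nfkb2-KO was higher than WT in both replicate numbers for 42 of the 48 (87.5%), against 34.4% of all genes tested and 42.2% of the strongly expressed ones. Both Nfkb2-KO libraries exceeded both WT libraries for 32 genes, against 21.6% of all genes. The replicate numbers gave medians of 0.15 and 0.23. No single gene passed the limma test at an adjusted p under 0.05, where 0.341% of all genes did, while 16 of the 48 had an unadjusted p under 0.05, beside 10.7% of all genes. With the block described next, 24 of the 48 did, beside 18.3% of all genes. The lowest adjusted p was 0.160, for Psmb7.

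With replicate number as a block in the limma model, 2 genes were called higher, Psma2 and Psmb7, against 1.91% of all genes. Psma2, an alpha ring subunit (chr13:14613240-14674236, plus strand), was at 12.20 and 12.40 in Nfkb2-KO, against 11.82 and 11.93 in WT. Both Nfkb2-KO libraries lay above both WT libraries. The difference was 0.42 ± 0.13 (SE; adjusted p = 0.341 by limma), and with the block its adjusted p was 0.0225. Psmb7, the subunit with trypsin-like activity (chr2:38588036-38644087, minus strand), was at 11.51 in both Nfkb2-KO libraries, against 11.18 and 11.11 in WT, with no overlap. It was at 11.16 in both RelB-KO libraries and at 11.21 and 11.32 in DKO. Its difference between Nfkb2-KO and WT was 0.37 ± 0.07 in limma without the block, and with the block its adjusted p was 0.0364. Its exons overlap those of Nek6. The authors' deposited table called 3 of the 48 higher (Psma2, Psmb7 and Psmc5), against 3.49% of all genes with an adjusted p there. In the authors' deposited table Psma2 differed by 0.46 (adjusted p = 0.000107), Psmb7 by 0.40 (0.00246) and Psmc5, a 19S ATPase, by 0.31 (0.0384). Leaving out any 1 of the Nfkb2-KO or WT libraries ended both calls with the block, and WT replicate 1 is among them. The median over the 48 without WT replicate 1 was 0.19.

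By role, every class of structural subunit had a positive median except the immunoproteasome genes and the testis alpha gene Psma8. All 7 alpha ring genes (median 0.20), all 4 non-catalytic beta genes (0.18), all 6 ATPases (0.23), all 11 other 19S subunits (0.23) and all 3 assembly chaperones of 19S (0.19) were higher in Nfkb2-KO in both replicate numbers. Psmd1 was at 12.23 and 12.32 in Nfkb2-KO, against 12.00 and 11.96 in WT, a difference of 0.30 ± 0.11 that was the third highest of the 48 and did not pass the test. Psmc5 was at 11.80 and 11.94 in Nfkb2-KO, against 11.57 and 11.58 in WT. Neither gene's libraries overlapped between the genotypes. The 19S lid deubiquitinase Psmd14 and the subunit Psmd6, each at 0.29 ± 0.10, also stayed short of the test. The 4 chaperones of 20S assembly had a median of 0.12, and Psmg4 was among the 3 lowest differences at -0.10 ± 0.11. Psma8 was another at -0.03 ± 0.04. Psmf1, the proteasome inhibitor PI31, differed by 0.03 ± 0.07, and its libraries overlapped, at 10.06 and 10.16 in Nfkb2-KO against 10.07 and 10.09 in WT. Over the 39 genes without a near copy the median was 0.19.

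The activator genes had a median difference of 0.15 in Nfkb2-KO against WT, and none passed the test. Psme1, the PA28 alpha subunit (chr14:55578123-55581529, plus strand), was at 12.87 and 13.09 in Nfkb2-KO, 12.72 and 12.94 in RelB-KO, 12.83 and 13.02 in DKO and 12.80 and 12.84 in WT. Both Nfkb2-KO libraries lay above both WT libraries, and the difference was 0.16 ± 0.12. Its partner Psme2 differed by 0.03 between Nfkb2-KO and WT, with an SE of 0.94 that fell to 0.07 with the block, since its replicate gap then leaves the error. Psme3 was at 12.86 and 12.97 in Nfkb2-KO, 12.63 and 12.89 in RelB-KO, 12.80 and 13.05 in DKO and 12.81 and 12.71 in WT, with a difference of 0.15 ± 0.13 between Nfkb2-KO and WT.

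**Figure D3:**
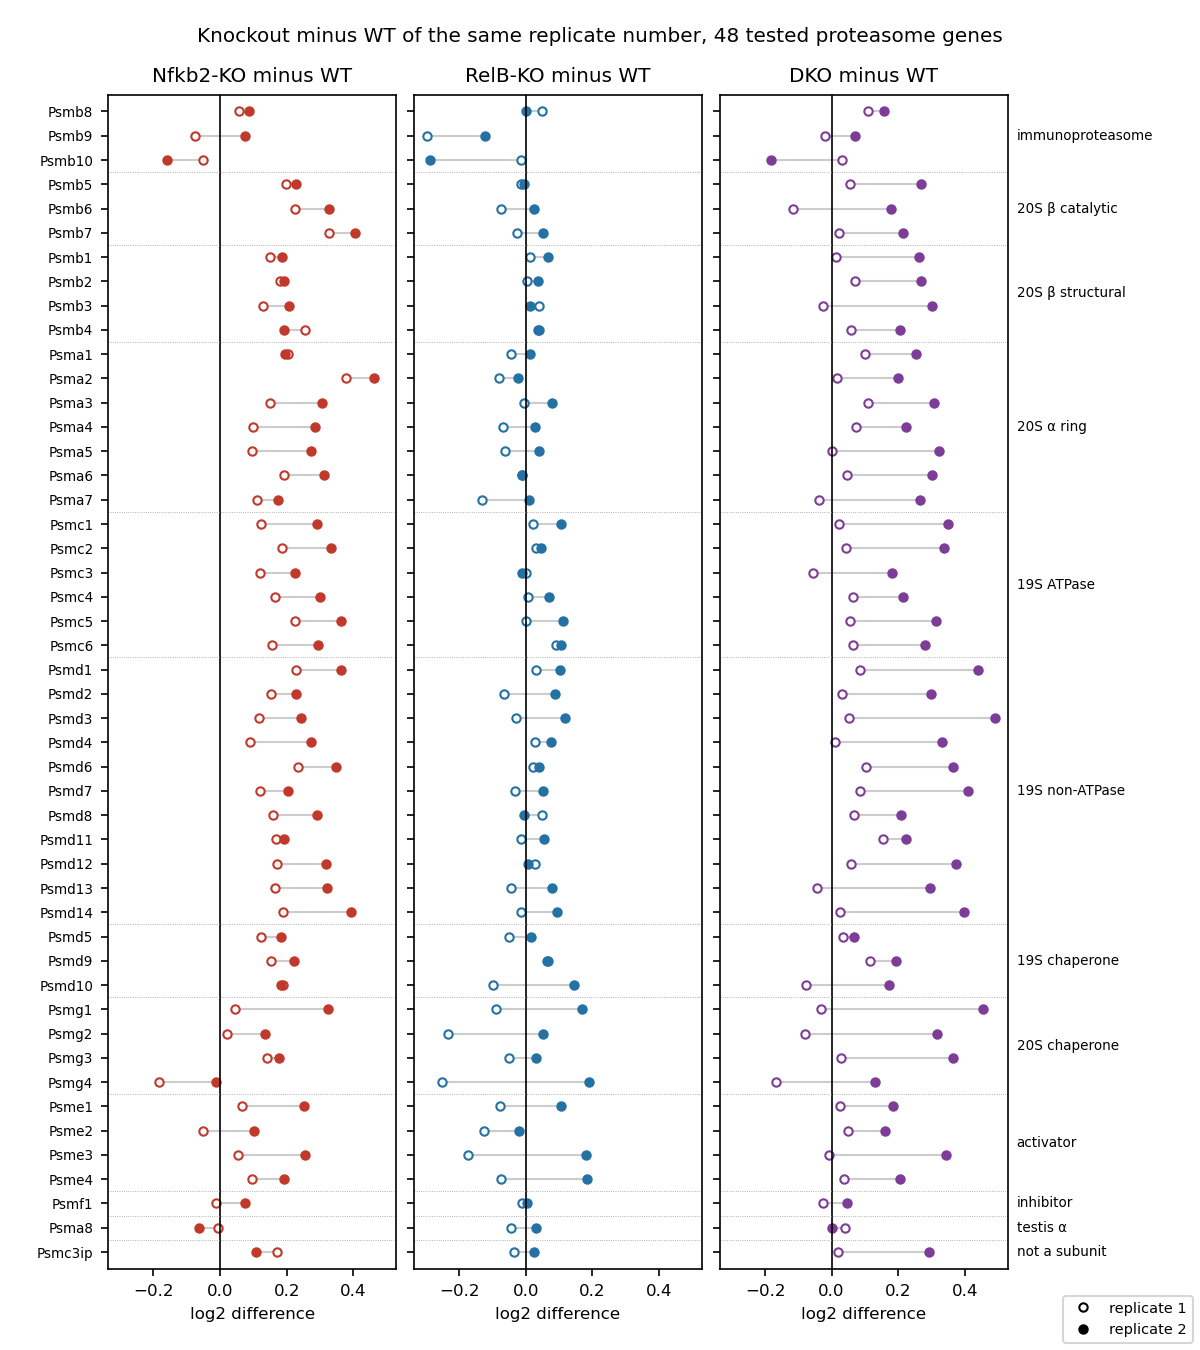
Knockout minus WT of the same replicate number (log2) for the 48 tested proteasome genes, grouped by role, with replicate 1 as open and replicate 2 as filled points. In Nfkb2-KO both points lie above 0 for 42 genes; in RelB-KO for 14; in DKO for 35, with medians of 0.03 in replicate 1 and 0.27 in replicate 2.

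The 3 immunoproteasome genes had a median difference of 0.00 between Nfkb2-KO and WT, beside 0.19 for the other 45. Psmb8 (chr17:34197721-34201454, plus strand), which takes the place of Psmb5, was at 12.84 and 13.06 in Nfkb2-KO, 12.83 and 12.97 in RelB-KO, 12.90 and 13.13 in DKO and 12.78 and 12.97 in WT. Psmb9 (chr17:34181987-34187764, minus strand), the counterpart of Psmb6, was at 11.36 and 11.48 in Nfkb2-KO, 11.14 and 11.28 in RelB-KO, 11.41 and 11.48 in DKO and 11.43 and 11.41 in WT. Psmb10 (chr8:105935735-105938444, minus strand), the counterpart of Psmb7, was at 10.66 and 10.63 in Nfkb2-KO, 10.70 and 10.50 in RelB-KO, 10.74 and 10.61 in DKO and 10.71 and 10.79 in WT. The Nfkb2-KO libraries overlapped WT for Psmb8 and Psmb9 and were both below WT for Psmb10, and the differences were 0.07 ± 0.13, -0.0003 ± 0.08 and -0.11 ± 0.09, none past the test. Psmb9 shares exonic sequence with Tap1, the peptide transporter gene beside it, and reads from the overlap cannot be told apart unless strand was used, which is not stated. The same holds for Psmb8 with Gm20496, Psmb5 with Mir686 and Psme1 with Emc9.

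The constitutive counterparts were each higher in Nfkb2-KO in both replicate numbers. Psmb5 (chr14:54614119-54618022, minus strand), with chymotrypsin-like activity, was at 10.06 and 10.14 in Nfkb2-KO, 9.85 and 9.90 in RelB-KO, 9.92 and 10.18 in DKO and 9.87 and 9.91 in WT. Psmb6 (chr11:70525367-70527858, plus strand), with caspase-like activity, was at 11.50 and 11.59 in Nfkb2-KO, 11.20 and 11.28 in RelB-KO, 11.16 and 11.44 in DKO and 11.27 and 11.26 in WT. For both genes the Nfkb2-KO libraries lay above WT, and the differences of 0.21 ± 0.10 and 0.28 ± 0.10 did not pass the test. Within each library, Psmb10 minus Psmb7 was -0.87 ± 0.02 in Nfkb2-KO and -0.40 ± 0.11 in WT (SD, n = 2 each), and Psmb9 minus Psmb6 was -0.12 ± 0.02 in Nfkb2-KO and 0.16 ± 0.01 in WT. Neither of these pairs overlapped between the genotypes (exact permutation p = 0.333 for each, two-sided, the smallest that 2 against 2 libraries allow). Psmb8 minus Psmb5 was 2.85 ± 0.10 in Nfkb2-KO and 2.99 ± 0.10 in WT and overlapped.

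In RelB-KO, Psmb9 minus Psmb6 was -0.03 ± 0.04, also without overlap with WT (exact permutation p = 0.333), while Psmb10 minus Psmb7 was -0.56 ± 0.14 and Psmb8 minus Psmb5 was 3.02 ± 0.06, both overlapping WT. In DKO the same 3 differences were 0.15 ± 0.15, -0.59 ± 0.18 and 2.96 ± 0.02 (SD, n = 2), and all overlapped WT. The order of genotypes thus differed from pair to pair, with Nfkb2-KO lowest in each. These within-library differences are on the deposited log2 scale, and only their change between genotypes is free of gene length whatever that scale is. Per kilobase, Psmb8 exceeded Psmb5 by 1.88 to 2.18 log2 units in every library. Psmb9 was 0.82 to 1.21 units below Psmb6 on that scale, and Psmb10 0.50 to 1.06 units below Psmb7. These per-length values hold only if the deposited values carry no length correction, which is not known.

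**Figure D4:**
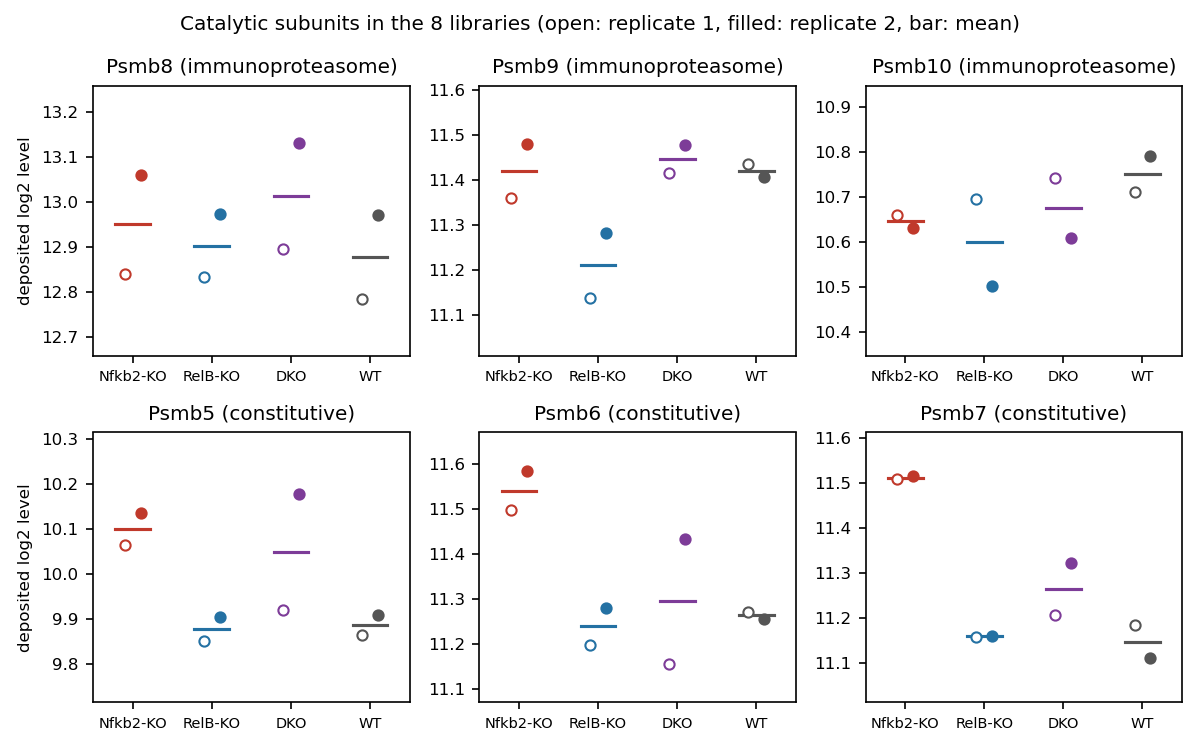
Deposited log2 level of the 3 immunoproteasome genes (top) and their constitutive counterparts (bottom) in each library, with genotype on the x axis; every panel spans the same height on the log2 axis and bars mark means of 2 libraries. Psmb7 is at 11.51 in both Nfkb2-KO libraries, above 11.18 and 11.11 in WT, while Psmb8 and Psmb9 overlap WT there.

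RelB-KO and WT had close values in the proteasome genes. The median difference between RelB-KO and WT was 0.01, with -0.02 in replicate 1 and 0.04 in replicate 2. RelB-KO was higher in both numbers for 14 of the 48, against 22.4% of all genes, and lower in both for 6, against 21.3%. No gene passed limma (0.00725% of all genes did) or limma with the block (0.0145%). An unadjusted p under 0.05 was seen for 1 of the 48 in either model, beside 1.24% of all genes in limma and 3.13% with the block, and the authors' deposited table called none of the 47 genes it tested, against 0.119% of all. The gene with the low p was Psmb9, which differed by -0.21 ± 0.08, with both RelB-KO libraries below both WT libraries. Psmb10 differed by -0.15 ± 0.09 and Psmg2, a chaperone of 20S assembly, by -0.09 ± 0.14, the next in that direction. Psmg2 overlapped between RelB-KO (9.39 and 9.64) and WT (9.62 and 9.59). In the other direction the largest differences were those of the ATPase Psmc6 (0.10 ± 0.09), Psmd1 (0.07 ± 0.11) and Psmd9 (0.06 ± 0.07).

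The DKO values depended on the replicate. The summed B cell marker level was 7.81 in DKO against 7.34 in WT in replicate 1, and 7.87 against 7.55 in replicate 2. Any part of B cell RNA in the DKO values was not tested. Over the 48 genes the median difference between DKO and WT was 0.15, with 0.03 in replicate 1 and 0.27 in replicate 2. DKO was higher in both numbers for 35 of the 48, against 29.8% of all genes, and both DKO libraries exceeded both WT libraries for 22, against 16.6%. No gene passed limma (0.0145% of all genes) or limma with the block (0.0652%), and the authors' deposited table called none of 47, against 1.23%. An unadjusted p under 0.05 was seen for 0 of the 48 in limma, beside 5.18% of all genes, and for 10 with the block, beside 12.9%. The largest differences were those of 19S subunits. Psmd3 was at 12.03 and 12.40 in DKO, against 11.98 and 11.91 in WT, a difference of 0.27 ± 0.13. Psmd1, at 12.08 and 12.40 in DKO, differed by 0.26 ± 0.11. Psmd7, a subunit of the 19S lid, was at 11.46 and 11.79 in DKO, against 11.37 and 11.38 in WT, a difference of 0.25 ± 0.12. In all 3 genes replicate 2 of DKO was the higher, and both DKO libraries lay above both WT libraries. The 11 non-ATPase subunits of 19S had a median of 0.21, the ATPases 0.18, the alpha ring 0.16, the constitutive catalytic genes 0.12 and the immunoproteasome genes 0.03. Psmb10, Psmg4 and Psmf1 were lowest, at -0.08 ± 0.09, -0.02 ± 0.11 and 0.01 ± 0.07. Without DKO replicate 2 the median was 0.03, and without DKO replicate 1 it was 0.27.

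DKO and Nfkb2-KO differ by the additional loss of RelB. The median difference was -0.03, and DKO was lower in both numbers for 17 of the 48, against 31.5% of all genes. Psma2 was called lower with the block, where 2.96% of all genes were, and no gene was called without it, where 0.768% were. Of the 48, 1 had an unadjusted p under 0.05 in limma and 3 with the block, beside 9.86% and 16.3% of all genes. Psma2 was at 11.84 and 12.13 in DKO, against 12.20 and 12.40 in Nfkb2-KO, a difference of -0.31 ± 0.13 (adjusted p = 0.510 by limma and 0.0454 with the block). Its libraries did not overlap. Psmb7 (-0.25 ± 0.07) and Psmb6 (-0.25 ± 0.10) came next and did not pass. Psmd3 (0.09 ± 0.13), Psmd7 (0.09 ± 0.12) and Psmg4 (0.08 ± 0.11) stood at the other end. The 3 immunoproteasome genes had a median of 0.03 and the 3 constitutive catalytic genes one of -0.25. Quantile normalization, or leaving out any 1 of the knockout libraries, ended the Psma2 call. The median was -0.16 without DKO replicate 2 and 0.07 without DKO replicate 1.

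Against RelB-KO, DKO was higher on average for all 48 genes, with a median of 0.15, and in both replicate numbers for 38, beside 28.2% of all genes. No gene passed limma (0.00725% of all genes) or limma with the block (0.0145%). Unadjusted p-values under 0.05 were seen for 2 of the 48 in limma, beside 2.88% of all genes, and for 8 with the block, beside 8.81%. Psmd7 (0.24 ± 0.12), Psmb9 (0.24 ± 0.08) and Psmd3 (0.23 ± 0.13) had the largest differences, and Psmg4 (0.01 ± 0.11), Psmf1 (0.01 ± 0.07) and Psmd10, a chaperone of 19S assembly (0.02 ± 0.13), the smallest.

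Nfkb2-KO against RelB-KO had a median of 0.17 and was higher in both numbers for 45 of the 48, beside 32.8% of all genes. Psma2 (adjusted p = 0.00904) and Psmb7 (0.0307) were called higher by limma with the block, where 2.78% of all genes were. None was called without it, where 0.797% were, and in that model the differences were 0.47 ± 0.13 and 0.35 ± 0.07. Of the 48, 10 had an unadjusted p under 0.05 in limma and 22 with the block, beside 11.9% and 20.1% of all genes. Psmb6 followed at 0.30 ± 0.10, while Psmg4 (-0.07 ± 0.11), Psma8 (-0.03 ± 0.04) and Psmf1 (0.04 ± 0.07) were lowest. Leaving out any 1 Nfkb2-KO or RelB-KO library ended both calls. Comparisons here share libraries (each genotype enters 3 of them), so the counts are not independent of each other.

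The test of whether RelB loss acted differently with and without Nfkb2 (the DKO to Nfkb2-KO difference from which the difference of RelB-KO to WT was subtracted) called no proteasome gene by limma, where 0.00725% of all genes passed, or with the block, where 0.471% did. Of the 48, 1 had an unadjusted p under 0.05 in limma and 3 with the block, beside 4.45% and 8.36% of all genes. The median was -0.06 over the 48 and 0.04 to 0.24 was the range of the 3 immunoproteasome genes, all positive. Psmb9 was highest at 0.24 ± 0.12, and Psma2 and Psmb7 were lowest at -0.26 ± 0.19 and -0.26 ± 0.10. Without DKO replicate 1 the median over the 48 was 0.06.

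Among 36 tested genes that act with the proteasome (ubiquitin, its receptors and shuttles, assembly and transcription factors), Nfkb2-KO exceeded WT in both replicate numbers for 21 and was below it in both for 3, beside 34.4% and 30.9% of all genes, with a median difference of 0.12. Limma called none of the 36, where 0.341% of all genes passed, and with the block it called 1 higher, near the 1.91% of all genes. That gene was Hsf2, a heat shock transcription factor, at 10.76 and 10.59 in Nfkb2-KO against 10.26 and 10.07 in WT (0.51 ± 0.14; adjusted p = 0.283 by limma and 0.0107 with the block). Pomp, the chaperone that completes the 20S core, was at 11.61 and 11.54 in Nfkb2-KO, against 11.36 and 11.28 in WT, and Nfe2l1, the transcription factor that restores proteasome genes when proteolysis is blocked, at 12.21 and 12.05 in Nfkb2-KO, against 11.97 and 11.87 in WT. Neither passed the test, at differences of 0.26 ± 0.08 and 0.21 ± 0.10. In RelB-KO and DKO the medians against WT were 0.03 and 0.05, with no call in either model.

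Genes of MHC class I peptide loading and its regulators had a median difference of 0.01 in Nfkb2-KO against WT over 19 tested. With the block, Calr, the chaperone calreticulin, was called higher (adjusted p = 0.0267). Irf1, an interferon-regulated transcription factor that acts on Psmb9 and Tap1, was called lower with it (adjusted p = 0.0356). Limma without the block called neither (adjusted p = 0.207 and 0.188), at differences of 0.45 ± 0.10 and -0.47 ± 0.10. The block thus gave 1 call in each direction among 19 genes, where 1.91% of all genes were called higher and 1% lower. Irf1 was at 12.12 and 12.31 in Nfkb2-KO, against 12.75 and 12.61 in WT. Tap1 was at 13.19 and 13.25 in Nfkb2-KO, against 13.36 and 13.30 in WT, and did not pass the test. Nlrc5, the class I transactivator, was at 13.56 and 13.06 in Nfkb2-KO, against 13.68 and 13.62 in WT, and did not pass either. In RelB-KO and DKO the medians of this list against WT were -0.04 and -0.07, with no call in either model.

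The promoters of these genes were read from RefSeq sequence (GRCm38.p6), where 41 of the 49 matched, and are shown for Psma2 and Psmb6, among the larger Nfkb2-KO differences, and for Psmb10, the lowest. Windows upstream of the annotated start, kept to bases outside exons, are printed 5′ to 3′ on the gene's strand, and capitals mark matches to the motifs named below. They cover chr13:14613166-14613239 for Psma2, chr11:70525107-70525356 for Psmb6 and chr8:105938445-105938642 for Psmb10.
Psma2: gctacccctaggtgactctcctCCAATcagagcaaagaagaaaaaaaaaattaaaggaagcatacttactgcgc
Psmb6: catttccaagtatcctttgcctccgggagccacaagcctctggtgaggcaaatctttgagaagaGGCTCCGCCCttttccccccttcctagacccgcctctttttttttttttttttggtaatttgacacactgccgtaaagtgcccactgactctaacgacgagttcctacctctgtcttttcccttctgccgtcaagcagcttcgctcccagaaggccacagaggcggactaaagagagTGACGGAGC
Psmb10: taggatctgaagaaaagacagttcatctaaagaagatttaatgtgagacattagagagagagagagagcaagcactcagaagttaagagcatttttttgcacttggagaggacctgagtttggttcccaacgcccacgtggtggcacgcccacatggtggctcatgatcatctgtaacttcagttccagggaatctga

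Psma2 holds CCAAT at position -54, and Psmb6 holds the antioxidant response element letters TGACNNNGC at -9 and the NF-kB letters (GGG, any 5 bases, CC) on the other strand at -186, counted from the start site. No match lies in the Psmb10 window. Over 250 bases, both strands searched, CCAAT occurred in 30.8% of 39 promoters of the other proteasome genes, against 33.8% of all 32851 promoters. The antioxidant letters (TGACNNNGC or TGAGNNNGC) occurred in 13 of 39 against 7560 of 32851, the NF-kB letters in 56.4% against 45.8%, the interferon letters (GAAA, any 2 bases, GAAA) in 7.69% against 2.98% and the STAT letters TTCNNNGAA in 2.56% against 7.02%. Among the 3 immunoproteasome promoters, Psmb9 held CCAAT and the NF-kB letters, and Psmb8 the STAT letters. All 250 bases of the Psmb8 and Psmb9 windows lie in annotated exons, so these matches do too. These are matches of letters and no evidence of binding.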

How the data were processed

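The authors deposited 1 table of log2 values per gene and library; per the file headers these are batch-corrected RPKM. They did not behave as RPKM: un-logged and multiplied by exonic length they summed to 79.6 to 82.7 M per library, against at most 1 M. STAR, genome mm10 and DESeq2 1.10.1 are named, without roles, per the submitters' processing notes. Annotation, batch method and strandedness are not given in the sources used here. The authors also deposited fold changes (log2) with p-values of each knockout against WT. Another 8 columns of z-scores were not used. Of 22432 genes, 6247 were 0 in all libraries, 1 had a blank, and 13797 were tested, those whose un-logged values averaged 1 or more.

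A linear model of the 4 genotypes was fitted to 8 libraries with limma 3.58.1 (R 4.3.3; empirical Bayes with trend), Benjamini-Hochberg adjusted over all genes tested per contrast, with calls at 0.05. Differences are log2 ± SE of the model without the block. The plan named this fit; another has replicate number as a block. The numbers pair the samples: replicate differences correlated across genes at 0.81 to 0.89 in all 6 pairs of genotypes, and the first principal component (67.8% of variance) separated the numbers. Fits were tested on simulated data, but the check covered only planted changes larger than the differences given here for proteasome genes. Recovery of changes as small as those differences is not given here. Near copies were found with blastn 2.17.0 in GENCODE M21. The 49 genes, the pathway and marker lists and the motifs were chosen with earlier results of these data known. Named genes are the catalytic pairs, PA28, any gene called, the 3 largest differences per direction and contrast, and the extremes of replicate gap and level; Psmc5 and others given as examples of a role were chosen after their values were seen.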

Additional observations from a re-analysis of the deposited data

How the results depend on the processing

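With replicate number as a block, limma called 2 proteasome genes in Nfkb2-KO against WT, 1 in DKO against Nfkb2-KO and 2 in Nfkb2-KO against RelB-KO, against 0 in each without it. The block changed no other call of a proteasome gene. Leaving out 1 library at a time, the counts with the block ran from 0 to 2, 0 to 1 and 0 to 2 in these contrasts, and with quantile normalization the DKO against Nfkb2-KO count was 0. The median difference ran from 0.15 to 0.23 (Nfkb2-KO against WT), -0.03 to 0.05 (RelB-KO against WT), 0.03 to 0.27 (DKO against WT), -0.161 to 0.074 (DKO against Nfkb2-KO), 0.0248 to 0.261 (DKO against RelB-KO), 0.13 to 0.24 (Nfkb2-KO against RelB-KO) and -0.183 to 0.0585 (interaction). For Nfkb2-KO against RelB-KO it was 0.15 with quantile normalization and 0.18 among strongly expressed genes, a filter chosen after seeing the data, as were the near-copy and block alternatives beyond the plan. Of 1319 alternative values for 83 differences of named genes, 1245 kept their direction and side of the threshold or moved by less than the spread, 69 moved further, 5 newly passed the threshold, and none reversed past it; the causes were not tested. The reads assigned per library are not known from the log2 values, so the counting error of weakly expressed genes such as Psma8 cannot be given. With 2 libraries per genotype the model has 4 residual degrees of freedom (3 with the block).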

Other observations

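In Rps27a and Ubb, which encode ubiquitin, the replicate numbers differed more than the genotypes. Rps27a, which encodes ubiquitin fused to a ribosomal protein, was between 13.24 and 13.59 in the 4 libraries of replicate 2 and between 8.66 and 8.99 in those of replicate 1. Ubb, a polyubiquitin gene, ran the other way, between 6.97 and 7.12 in replicate 2 and between 12.06 and 12.17 in replicate 1. Adrm1, a ubiquitin receptor of the 19S particle, and Vcp, the segregase that extracts ubiquitinated proteins, were higher in every replicate 2 library, at 10.53 to 10.75 against 9.06 to 9.18 and at 12.75 to 13.09 against 11.66 to 11.81.

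After the mean of each replicate number was taken out, the genes whose 8 values correlated best with the mean of Psmb8, Psmb9 and Psmb10 were Podnl1 (Pearson r = 0.94), Pdzd8 (0.93), Tbc1d13 (0.93), Klhl5 (0.93) and Gstt1 (0.92). These are a description, picked from 13797 genes over 8 libraries.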
